A study of Rattus norvegicus with 24 samples.

Results

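The comparison set 4 hearts of rats that had 7 days of acupuncture at the Neiguan point on the forearm before myocardial injury against 4 hearts of sham rats, across all named genes. All arrays whose title gives the Neiguan or the sham group were used, 8 of 24 in the series, and 12894 genes were tested. The injury was a ligation of the left anterior descending artery (LAD) of the heart, a model of myocardial ischaemia-reperfusion injury (IRI). The labels give every acupoint group the same injury. The IRI group, 4 rats injured without acupuncture, defined which genes count as injury genes, and 3 further injured groups with acupuncture at Jiaji, Yanglingquan or Quchi were used to see what differed at Neiguan. Each group had 2 males and 2 females, and each array is taken as 1 animal, so p-values reflect how far these samples spread. The sources used here give no strain or age, no time of reperfusion or sampling, and no word on whether the sampled myocardium held the injured wall. The arrays are of whole myocardium, so fewer cells of a type and less RNA per cell cannot be told apart.

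Tying off a coronary artery starves the heart muscle it feeds of oxygen, and the return of blood brings in leukocytes. Within hours stressed heart and vessel cells switch on immediate early transcription factors, then cytokines and adhesion molecules such as interleukin 6, chemokines and selectins, which draw neutrophils into the tissue. Neiguan is a point commonly used for heart complaints in acupuncture practice, and its stimulation before ischaemia is studied as a form of preconditioning, in which a mild earlier stimulus lessens later injury.

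Between 76.1% and 83.8% of probes were well above background on the Neiguan arrays, 81.1% to 88.7% were on the IRI arrays and 82% to 88% on the sham arrays. Arrays correlated at r = 0.985 to 0.992 within the Neiguan group and at 0.987 to 0.993 within the sham group, against 0.965 to 0.985 between these groups (across genes). The tissue label was checked against its markers: the mean level of 17 cardiomyocyte markers was 5.78 to 5.98 on the Neiguan arrays and 5.77 to 5.94 on the sham arrays. Levels here are log2 processed signal minus the 75th percentile of the same array, so a level of 0 marks that percentile, and differences are on the log2 scale. Arrays that share a scan time in the file headers are termed a slide here, as no slide number was read. The Neiguan, IRI and sham groups each had a slide of their own. The Neiguan arrays were scanned on another day than the sham and IRI arrays. Slide, scan day and the Neiguan-sham difference therefore cannot be told apart, and no within-day value of it exists. The same holds for Neiguan against IRI. IRI against sham lies within 1 day but not within 1 slide, so slide and injury cannot be told apart. The acupoint groups shared no slide with each other, so slide and acupoint cannot be told apart either. The 75th percentile of log2 signal before scaling was 10.24 to 10.62 on the Neiguan arrays, 10.03 to 10.2 on the IRI arrays and 9.81 to 10.14 on the sham arrays, so Neiguan arrays were all brighter than sham arrays before scaling. The part of this brightness in the results was not tested.

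Neiguan-pretreated injured hearts differed from sham in 2566 of 12894 genes (19.9%) at an adjusted p under 0.05, the threshold at which a gene is termed called. Of these, 1613 genes were higher (12.5% of genes tested) and 953 lower (7.39%). The differences were small for most genes: 713 of the higher and 47 of the lower ones exceeded 1 on the log2 scale, and the median difference of all genes was -0.10. The values of the 4 Neiguan and 4 sham arrays did not overlap for 1474 of the higher and 676 of the lower called genes, where 27.1% of all genes tested had no overlap. The count was 1676 without Neiguan replicate 1 and 1660 without sham replicate 3. The balance of directions moved with the scaling: 62.9% of the calls were higher under the main scaling, 41.6% after quantile normalization, 32% with each array scaled to its median (4331 calls), where the median of all genes was -0.24, and 50.9% after another background correction (normexp). Differences below are therefore read against the median of all genes. No gene had a Neiguan-sham difference that differed between females and males in limma (0 called, 465 at an unadjusted p under 0.05; also 0 with quantile normalization and in the authors' deposited values).

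Most genes called higher in IRI than in sham hearts were also called higher in Neiguan-pretreated hearts. In the main fit most genes called lower in IRI were not called lower in Neiguan against sham. IRI against sham called 742 genes (5.75%), 609 higher (4.72%) and 133 lower (1.03%). Of the 609 higher injury genes, 544 (89.3%) were called higher in Neiguan against sham too. Of the 133 lower ones, 33 (24.8%) were called lower and 6 were called higher. Together these 577 genes were 77.8% of the injury genes and 22.5% of the genes called in Neiguan against sham. The 2 comparisons share the 4 sham arrays, so a sham array that lies apart moves both in 1 direction, and the share above is a description. Without sham replicate 3 there were 440 injury genes and 335 called the same way, and without IRI replicate 4 there were 508 and 370. The share of the same-way genes that were higher was 94.3%, against 82.5% after quantile normalization and 78.6% with median scaling. The 33 lower same-way genes became 3 without IRI replicate 1, 7 without sham replicate 3, 100 after quantile normalization and 121 with median scaling. The set of injury genes changed with each of these settings.

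**Figure D1:**
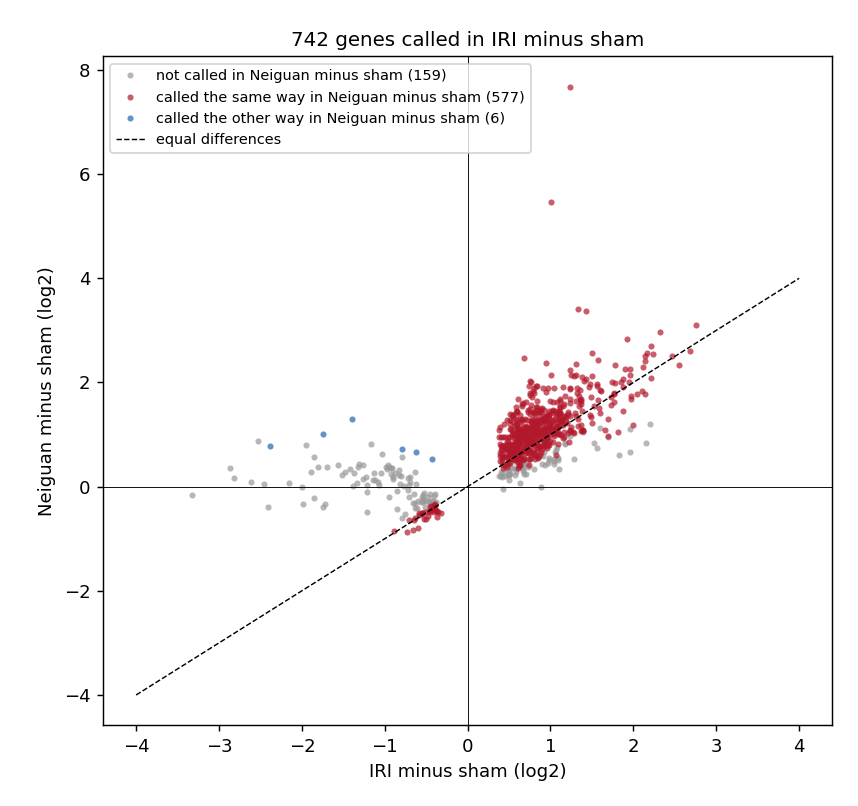
Each point is 1 of the 742 genes called in IRI minus sham, with its IRI-minus-sham difference (log2) on the horizontal axis and its Neiguan-minus-sham difference (log2) on the vertical axis; colours give the call in Neiguan minus sham and the dashed line marks equal differences. Genes higher in IRI lie along and above the line, and many genes lower in IRI lie near 0 on the vertical axis. Both axes share the 4 sham arrays.

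Sizes were compared as medians. Over the 609 higher injury genes the median was 1.04 in Neiguan minus sham and 0.82 in IRI minus sham, and 607 of them were above 0 in Neiguan minus sham. Over the 133 lower injury genes the median was -0.14 in Neiguan minus sham and -0.76 in IRI minus sham. Array by array, the median over the higher injury genes lay between 0.90 and 1.12 above the sham mean in the Neiguan hearts, between 0.74 and 0.92 in the IRI hearts and between -0.11 and 0.07 in the sham hearts. For the lower injury genes it lay between -0.24 and 0 in the Neiguan hearts and between -0.99 and -0.55 in the IRI hearts. The IRI and sham arrays chose these genes, so their own values are no test. Among the other acupoint groups the median over the higher injury genes was 0.87 to 1.32 at Jiaji, 0.35 to 0.50 at Yanglingquan and 0.52 to 0.88 at Quchi. Over the lower injury genes it was -0.05 to 0.2 at Jiaji, -0.52 to -0.36 at Yanglingquan and -0.67 to 0.13 at Quchi. A median near the sham level was thus not particular to Neiguan.

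**Figure D2:**
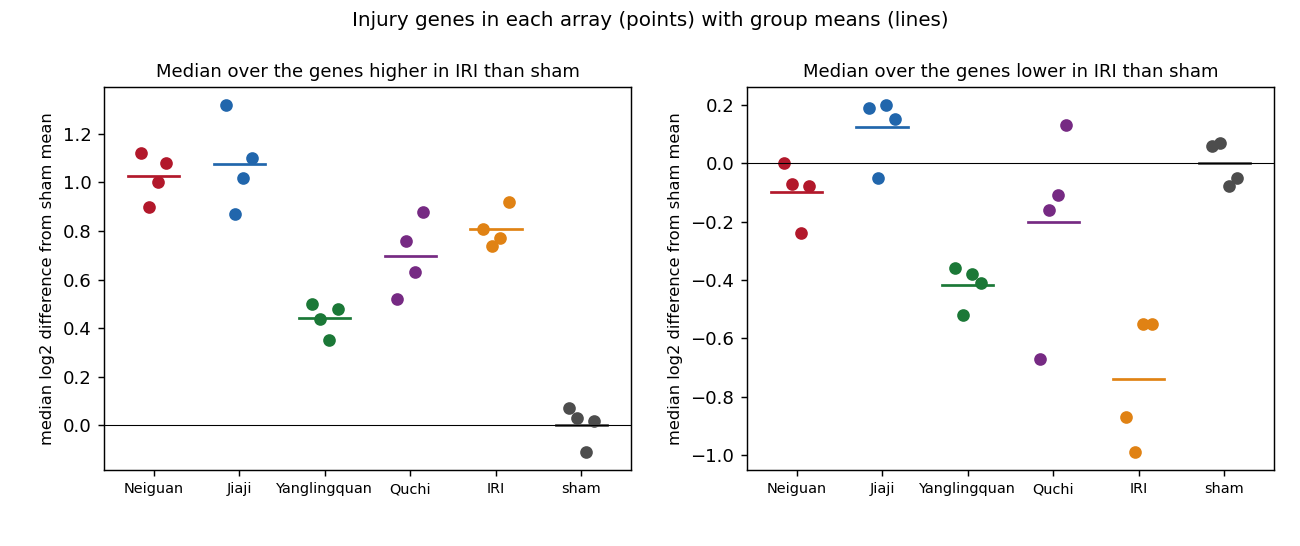
Median log2 difference from the sham mean over the 609 genes higher in IRI (left) and the 133 genes lower in IRI (right), for each of 24 arrays (points) with group means (lines). The Neiguan arrays lie at 0.90 to 1.12 in the left panel and at -0.24 to 0 in the right panel; IRI and sham arrays were used to choose the genes.

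The direct test of Neiguan against IRI called 727 genes (5.64%), 569 higher (4.41%) and 158 lower (1.23%), of which 168 were injury genes. Of the higher injury genes, 97 were called higher still in the Neiguan hearts, 5 were called lower than in IRI, and 507 (83.3%) were not called. Of the lower injury genes, 66 (49.6%) were called higher in Neiguan than in IRI, which is toward sham, and 0 were called lower still. The count of 168 was 111 without IRI replicate 2. Of the 168, 57.7% were further from sham than in IRI. That split moved with the scaling: 84 of 206 such genes (40.8%) were further from sham after quantile normalization and 62 of 170 (36.5%) with median scaling. IRI against sham and Neiguan against IRI share the IRI arrays, in which a value that lies apart moves a gene away from sham in the first and toward sham in the second. A further 95 injury genes, 61 higher and 34 lower, were called neither against sham nor against IRI, so neither test placed them.

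The genes raised in both groups included known early products of injured myocardium, but most of the largest shared changes were in other, faint genes. Ranked by the smaller of the IRI and Neiguan differences, the top genes beside Stfa3l1 and Il6 were Or7g23e, Or8j3, Or2aj4, Or2l13c, Doc2a, Prl2a1, Fmo9 and Adam34. Among all these top genes, Il6 alone was well above background on all 12 Neiguan, IRI and sham arrays. With normexp all of them but Il6, Stfa3l1 and Or7g23e lost the call against sham. The promoters of Il6 and Cxcl1 are shown because these cytokine genes were raised in the IRI and in the Neiguan hearts, and that of Th, the enzyme that makes catecholamines, because Th was raised in the Neiguan hearts. The sequences are the 250 bases before the gene start from RefSeq (rat build GRCr8, minus strand, 5′ to 3′), and capitals mark matches to 3 motifs searched on both strands. These were NF-kB, bound by the factor that switches on many inflammatory genes (GGGA, any base, TT, any base, CC), AP-1 (TGANTCA), and the cyclic AMP response element, CRE (TGACGTCA). Il6 lies at chr4:5894576-5894825, Cxcl1 at chr14:17479322-17479571 and Th at chr1:207508219-207508468.
Il6: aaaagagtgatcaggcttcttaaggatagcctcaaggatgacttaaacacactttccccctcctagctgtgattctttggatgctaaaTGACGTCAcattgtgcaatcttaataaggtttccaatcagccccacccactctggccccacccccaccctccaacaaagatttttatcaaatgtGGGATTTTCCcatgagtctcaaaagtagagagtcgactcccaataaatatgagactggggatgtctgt
Cxcl1: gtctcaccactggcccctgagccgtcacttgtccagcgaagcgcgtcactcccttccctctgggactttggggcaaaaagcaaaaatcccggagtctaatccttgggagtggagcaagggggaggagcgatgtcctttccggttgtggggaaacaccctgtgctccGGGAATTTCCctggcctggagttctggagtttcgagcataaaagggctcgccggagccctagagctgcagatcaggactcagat
Th: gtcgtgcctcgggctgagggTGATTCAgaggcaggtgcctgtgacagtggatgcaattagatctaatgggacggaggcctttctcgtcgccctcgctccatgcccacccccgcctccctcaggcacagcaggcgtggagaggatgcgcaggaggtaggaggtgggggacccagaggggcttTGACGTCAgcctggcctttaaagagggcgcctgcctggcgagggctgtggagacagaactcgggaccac
The NF-kB letters stood in 273 of 27457 rat promoters of this length (0.994%), the AP-1 letters in 1747 (6.36%) and the CRE letters in 466 (1.7%). Of the 8 called inflammatory genes, 4 had a promoter in the table, and 2 of these, Il6 and Cxcl1, held the NF-kB letters. A match is a description of the sequence and not evidence of binding in these hearts.

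A minority of inflammatory cytokine and adhesion genes were called higher in the Neiguan hearts than in sham hearts. Of 24 tested, 8 were called higher and 0 lower (all genes: 12.5% higher, 7.39% lower), with a median difference of 0.73 against -0.10 over all genes. In IRI against sham 4 of them were called higher, with a median of 0.36. Interleukin 6 (Il6), a cytokine of the acute response, had levels of -0.27, -2.86, -0.77 and -0.95 in the Neiguan hearts, -1.81, -1.14, -2.9 and -0.51 in the IRI hearts and -3.23, -4.41, -4.25 and -3.01 in the sham hearts. All 4 Neiguan hearts were above all sham hearts, and the Neiguan and IRI ranges overlapped. The difference from sham was 2.51 ± 0.54 (SE, adjusted p 0.0024). Cxcl1, a chemokine that attracts neutrophils, stood at 3.15, 1.6, 2.92 and 2.76 in the Neiguan hearts, 2.19, 3.42, 2.33 and 3.54 in the IRI hearts and 1.25, 0.09, 0.52 and 1.42 in the sham hearts. Again no Neiguan heart overlapped sham, and the difference was 1.78 ± 0.38 (adjusted p 0.00205). P-selectin (Selp), which lets leukocytes roll on vessel walls, was 2.44 ± 0.43 above sham (adjusted p 0.00036). Its mean level was -4.23 ± 0.88 in the Neiguan hearts, -5.09 ± 0.73 in the IRI hearts and -6.66 ± 0.73 in the sham hearts (SD, n = 4 each). None of these 3 genes was called between Neiguan and IRI, with adjusted p of 0.743 for Il6, 0.74 for Cxcl1 and 0.269 for Selp. Selp was not well above background on every one of the 12 Neiguan, IRI and sham arrays. With normexp the Selp difference was 0.63, still called (adjusted p 0.0343).

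Among the inflammatory genes, Nos2 and Socs3 were higher in the Neiguan hearts than in the IRI hearts as well. Nos2, the inducible nitric oxide synthase, had levels of -0.56, -1.42, -0.81 and -1.08 in the Neiguan hearts, -2.14, -2.15, -2.26 and -1.79 in the IRI hearts and -2.73, -3.17, -3.05 and -2.69 in the sham hearts. The 3 groups did not overlap. Nos2 was 1.94 ± 0.18 above sham (adjusted p 1.77e-07), 1.12 above IRI (adjusted p 0.000415) and 0.68 above the mean of the other acupoints (adjusted p 0.018). The Jiaji hearts, at -1.36 to -0.84, overlapped the Neiguan hearts. Yanglingquan hearts stood at -1.79 to -1.33 and Quchi hearts at -2.66 to -1.85. Socs3, an inhibitor of signalling by interleukin 6 and its relatives, had levels of -1.97, -2.23, -2.23 and -2.11 in the Neiguan hearts, -2.8, -3.24, -2.88 and -2.51 in the IRI hearts and -2.84, -3.17, -3.07 and -3.07 in the sham hearts. It lay above every IRI and sham heart in each Neiguan heart. The difference was 0.90 ± 0.16 from sham (adjusted p 0.000469) and 0.72 from IRI (adjusted p 0.00877), and it was not called in IRI against sham (0.18, adjusted p 0.645). The remaining called members were named after their values were seen: Lif (0.50, adjusted p 0.0147) and Osm (0.41, adjusted p 0.0352), cytokines related to interleukin 6, and the adhesion molecule Icam1 (0.70, adjusted p 0.0249). Other inflammatory genes missed the threshold, among them Cxcl2 (0.90, adjusted p 0.218), Il1b (0.90, adjusted p 0.0769), Ccl2 (0.89, adjusted p 0.149) and Il10 (0.47, adjusted p 0.0911). Of these, Il10 was 0.74 above IRI (adjusted p 0.0254). The 8 calls in the list were 5 without Neiguan replicate 4, 5 without sham replicate 3 and 5 with median scaling. They rose to 12 in a fit of only the Neiguan and sham arrays and to 14 with slide as a random block. That block rests on an estimated correlation of -0.1 within slides. As Neiguan and sham each had their own slide, it cannot take slide out of this comparison.

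Immediate early genes are the first genes that a stimulus switches on. Of 25 tested, 5 were called higher and 0 lower, beside 12.5% and 7.39% of all genes. All 25 had differences above 0, with a median of 0.55. In IRI against sham 3 were called higher and the median was 0.31. Fosl1, a partner in the AP-1 factor, had levels of -3.84, -5.19, -3.88 and -4.19 in the Neiguan hearts, -3.96, -4.22, -4.84 and -3.6 in the IRI hearts and -5.25, -7.35, -7.02 and -5.85 in the sham hearts, of which 2 of 4 sham arrays were well above background. Every Neiguan heart was above every sham heart, and the difference was 2.09 ± 0.49 (adjusted p 0.00491), or 0.55 with normexp (adjusted p 0.0448). The growth regulator Myc averaged 1.09 ± 0.47 in the Neiguan hearts, 1.28 ± 0.10 in the IRI hearts and 0.06 ± 0.30 in the sham hearts (SD, n = 4 each), a difference of 1.03 ± 0.24 from sham (adjusted p 0.00386). Egr3, a zinc finger factor, was 1.14 above sham (adjusted p 0.000842), with another probe of the gene at 0.18, and lost its call with normexp (adjusted p 0.0856). Atf3, a stress factor, was 1.24 above sham (adjusted p 0.0171). Its call was lost without Neiguan replicate 1, without sham replicate 2 and without sham replicate 3, with adjusted p up to 0.0748. Zfp36, which marks cytokine messages for decay, was 1.30 above sham (adjusted p 0.0119) and lost its call without Neiguan replicate 1 and without sham replicate 2 (up to 0.0512). The 5 calls were 3 without Neiguan replicate 1, 3 without sham replicate 2, 8 in a fit of only the Neiguan, sham and IRI arrays and 11 with slide as a random block. That block cannot take slide out of Neiguan against sham, as each of these groups had its own slide. Fos (0.91, adjusted p 0.105) and Egr1 (0.65, adjusted p 0.368) did not pass.

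Neutrophil markers showed calls in the upward direction alone. Of 13 tested, 6 were called higher and 0 lower in Neiguan against sham (all genes: 12.5% and 7.39%), with a median of 0.94, and 2 in IRI against sham, with a median of 0.82. Between Neiguan and IRI 0 were called higher and 0 lower by limma. The mean level of the 13 ran from -3.38 to -2.54 over the Neiguan hearts, -3.35 to -2.68 over the IRI hearts and -4.35 to -3.16 over the sham hearts, so the Neiguan and sham ranges overlapped. Each of the 13 was well above background on at least 1 of the 8 Neiguan and sham arrays, and the part of neutrophil markers in the other results was not tested. Stfa3l1, a stefin protease inhibitor of the rat's myeloid cells, had levels of -2.78, -5.15, -3.21 and -3.13 in the Neiguan hearts, -4.67, -2.7, -3.64 and -4.63 in the IRI hearts and -6.15, -7.36, -6.96 and -6.18 in the sham hearts. No Neiguan or IRI heart overlapped sham, and the difference was 3.10 ± 0.56 (adjusted p 0.00049). Stfa3l1 was not well above background on every one of the 12 Neiguan, IRI and sham arrays. Csf3r, the receptor for the neutrophil growth factor G-CSF, was 1.11 ± 0.19 above sham (adjusted p 0.000221), and Cxcr2, the receptor for Cxcl1, was 1.12 ± 0.27 above sham (adjusted p 0.00538). Elane, neutrophil elastase, was 2.34 above sham (adjusted p 0.0019) over 3 Neiguan values, the fourth array having none. Fpr1, a receptor for bacterial peptides, named after its values were seen, was 0.90 above sham (adjusted p 0.0125). S100a9, a calcium-binding protein of neutrophils, was 1.58 above sham (adjusted p 0.0386), and its call was lost in a fit of only the Neiguan and sham arrays, without Neiguan replicate 1 or 4 and without sham replicate 2, 3 or 4, with adjusted p up to 0.133. S100a8, its partner, was not called (1.12, adjusted p 0.167). The list had 4 calls without sham replicate 3. With normexp the differences of these faint genes were smaller, at 0.98 for Stfa3l1, 0.62 for Csf3r and 0.39 for Cxcr2, and all 3 stayed called.

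**Figure D3:**
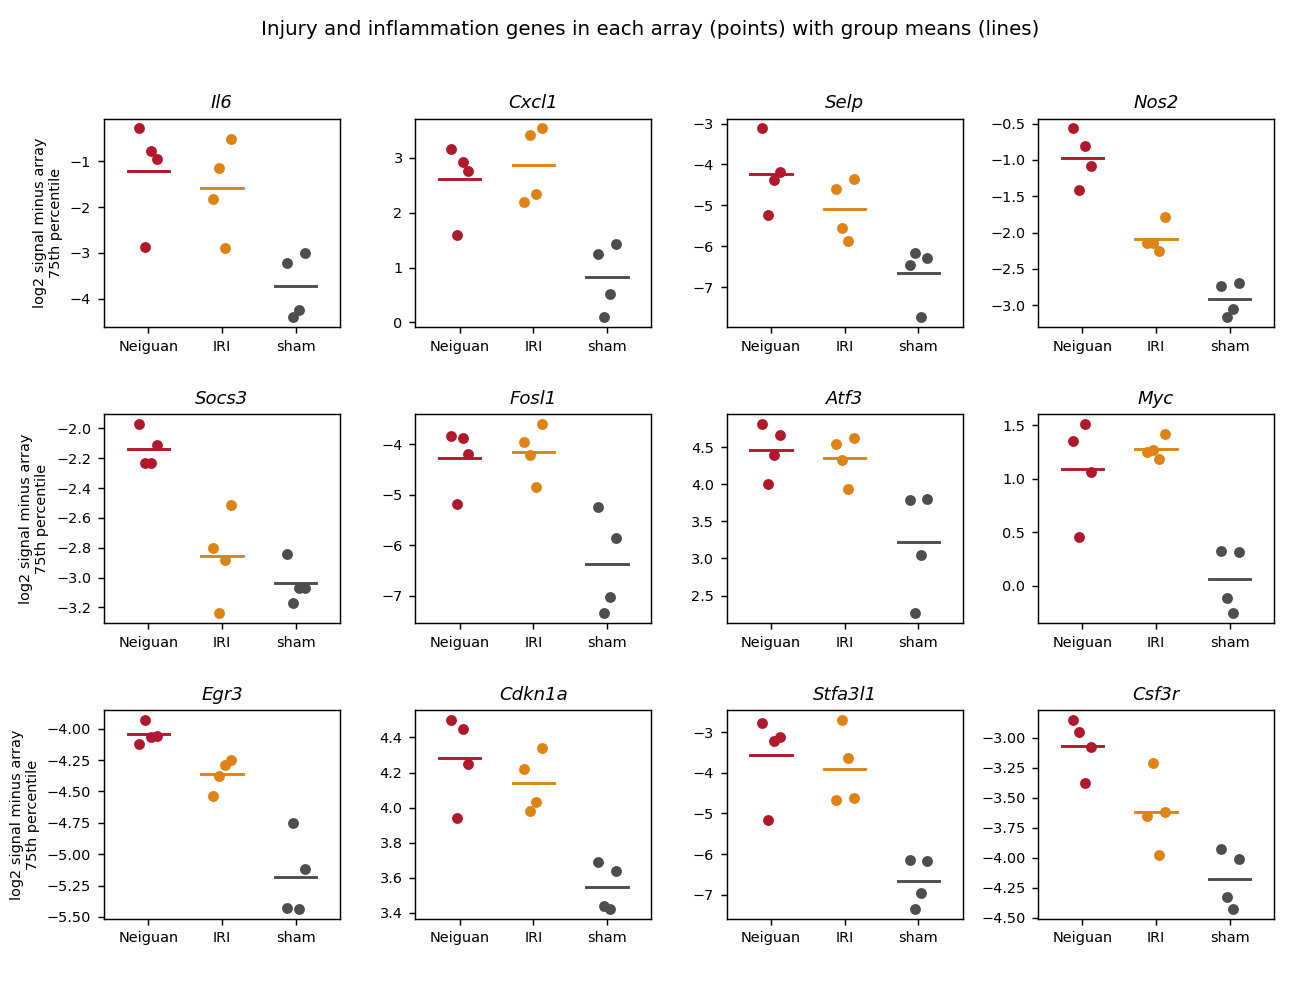
Level (log2 signal minus the array's 75th percentile, vertical axes) of 12 injury and inflammation genes in each heart of the Neiguan, IRI and sham groups (points, with group means as lines). Nos2 and Socs3 lie higher in Neiguan hearts than in IRI hearts, whereas Il6, Cxcl1 and Myc overlap between these groups; for all 12 genes each Neiguan heart lies above each sham heart.

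Genes of wall stress and of the fetal programme gave 1 call higher and 0 lower (all genes: 12.5% and 7.39%). Higher calls were 3 with quantile normalization or the authors' deposited values and 2 with normexp. The cell-cycle inhibitor Cdkn1a (p21) had levels of 4.5, 3.94, 4.45 and 4.25 in the Neiguan hearts, 4.22, 3.98, 4.03 and 4.34 in the IRI hearts and 3.69, 3.44, 3.42 and 3.64 in the sham hearts, a difference of 0.74 ± 0.13 from sham (adjusted p 0.000548) with no overlap. It was the 1 called gene of 13 tested (median 0.14). The natriuretic peptide genes Nppa (0.11, adjusted p 0.925) and Nppb (0.14, adjusted p 0.701), released from stretched heart muscle, and the stretch gene Ankrd1 (-0.11, adjusted p 0.77) were not called. Tnfrsf12a, a receptor of injured muscle, was called in IRI against sham (0.78, adjusted p 0.033) and just missed the threshold in Neiguan against sham (0.60, adjusted p 0.0513). It did not differ by call between Neiguan and IRI (-0.18, adjusted p 0.676).

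Of the 609 higher injury genes, 5 were called lower in the Neiguan hearts than in the IRI hearts, where 1.23% of all genes were. These, named after their values were seen, were Ldb2, Ppp1r27, Ptprv, Sema6d and Spry3. Ldb2, a cofactor of LIM-domain transcription factors, had levels of 0.7, -0.48, 0.23 and 0.01 in the Neiguan hearts, 1, 0.79, 0.76 and 1.47 in the IRI hearts and -0.11, 0.21, 0.08 and 0.28 in the sham hearts. The Neiguan hearts spread around the sham level and none reached the lowest IRI heart. The difference from IRI was -0.89 (adjusted p 0.0158). Sema6d, a guidance molecule of heart development, was -0.56 from IRI (adjusted p 0.02), at 0.08 from sham, and Spry3, a growth factor signalling inhibitor, was -0.48 from IRI (adjusted p 0.0266), at -0.05 from sham. Ptprv, a phosphatase-like gene, was -1.31 from IRI (adjusted p 0.0431), and -1.41 from the mean of the other acupoints (adjusted p 0.0187). Ppp1r27 stayed 1.06 above sham (adjusted p 0.000588) while -0.76 from IRI (adjusted p 0.0228).

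Of the 133 genes lower in IRI than in sham, 33 were called lower in the Neiguan hearts too. Another 66 were called toward sham against IRI, 6 of them above sham, and 34 were called in neither test. The 33 genes lower in both included Bbs10, a chaperonin-like gene of cilia, at -0.86 ± 0.20 (adjusted p 0.00414), Ppp1r12a, the targeting subunit of myosin phosphatase, at -0.83 ± 0.18 (adjusted p 0.00244), Bloc1s6, of lysosome-related organelle assembly, at -0.65 ± 0.15 (adjusted p 0.00446), and the antioxidant enzyme Prdx1. Prdx1 had levels of 1.7, 1.87, 1.87 and 1.69 in the Neiguan hearts, 1.96, 2.02, 1.93 and 1.91 in the IRI hearts and 2.2, 2.31, 2.33 and 2.28 in the sham hearts. All Neiguan and IRI hearts were below all sham hearts, and the Neiguan difference was -0.50 ± 0.08 (adjusted p 0.00027). Among the 66 genes toward sham, Or2t35, a smell receptor gene, had levels of -3.21, -3.46, -3.29 and -3.27 in the Neiguan hearts, -4.95, -4.97, -4.58 and -4.85 in the IRI hearts and -3.93, -3.97, -4.18 and -4.09 in the sham hearts. The IRI hearts were the lowest and the Neiguan hearts the highest, 1.53 above IRI (adjusted p 4.76e-06) and 0.73 above sham (adjusted p 0.00304; 0.37 with normexp). Cldnd2, a claudin-domain gene, showed the same order, 1.28 above IRI (adjusted p 1.83e-05) and 0.66 above sham (adjusted p 0.00415). Pou4f2, a neuronal transcription factor, was well above background on 4 of 4 Neiguan and 0 of 4 IRI arrays, so that its level in IRI is a bound, and it was at least 3.21-fold higher than in IRI. Of the 101 lower injury genes well above background on all 12 arrays, 38 (37.6%) were called toward sham.

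The balance of directions differed with signal and for smell receptor genes. Of the 3224 faintest genes 560 were called higher and 147 lower, against 168 higher and 185 lower in the 3224 brightest. Smell, pheromone and taste receptors, which sense chemicals in the nose and mouth, gave 264 of 576 tested (45.8%) called higher and 2 lower, with a median of 0.70. With normexp 147 were called higher and the median was 0.16. The count of all genes called higher was 1349 (11%) without them. They were 110 of the 609 higher injury genes (18.1%) and 103 of the 544 that stayed higher (18.9%). Among the 538 higher injury genes well above background on all 12 arrays, 486 (90.3%) were called the same way in Neiguan against sham.

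Genes of sympathetic nerves and of the adrenergic response, through which the nervous system raises heart rate and force, had 6 of 19 called higher and 0 lower, beside 12.5% and 7.39% of all genes. The median of the list, 0.11, was near 0. IRI against sham called 0 of them higher and 1 lower. Th, tyrosine hydroxylase, had levels of 1.75, 1.22, 1.47 and 1.34 in the Neiguan hearts, 0.56, -0.36, -0.09 and 0.55 in the IRI hearts and -0.08, -0.38, -0.45 and -0.33 in the sham hearts. The Neiguan hearts lay above all others of these 3 groups, 1.75 ± 0.17 above sham (adjusted p 2.77e-07), 1.28 above IRI (adjusted p 5.52e-05) and 0.76 above the mean of the other acupoints (adjusted p 0.00561). Jiaji hearts had Th levels of 1.08 to 1.5, which overlapped Neiguan, Yanglingquan hearts 0.5 to 1.02 and Quchi hearts -0.3 to 0.36. Slc6a2, the transporter that takes noradrenaline back into nerve endings, was 0.84 ± 0.11 above sham (adjusted p 1.47e-05) and 0.71 above IRI (adjusted p 0.000356), with another probe at 1.11. Chrm3, a muscarinic acetylcholine receptor, was 1.05 ± 0.21 above sham (adjusted p 0.00108) and Adcy5, the main cyclic AMP-making enzyme of heart muscle, 0.50 ± 0.13 (adjusted p 0.0114). The Adcy5 call was lost with median scaling and in a fit of only the Neiguan and sham arrays, with adjusted p up to 0.0818. Adra1a, an alpha-adrenergic receptor (1.04, adjusted p 0.0268), and Pde4d, which breaks down cyclic AMP (0.70, adjusted p 0.0162), were named after their values were seen. The 6 calls were 4 without Neiguan replicate 4 and 4 without sham replicate 2, and with median scaling 4 were higher and 3 lower.

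Of 11 tested angiotensin and kinin genes, of hormone pathways that set blood pressure, 2 were called higher and 2 lower (all genes: 12.5% and 7.39%). Agtr1b, a rodent angiotensin receptor, was 1.73 above sham (adjusted p 0.00999; lost with normexp, 0.0586). Nox4, which makes reactive oxygen, was -0.81 from sham (adjusted p 0.0229). The Nox4 call was lost in a fit of only the Neiguan and sham arrays, without Neiguan replicate 1 or 4 and without sham replicate 2 (adjusted p up to 0.0981).

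Clock genes, which set daily rhythms, had 3 of 15 called higher and 1 lower (all genes: 12.5% and 7.39%), with a median of -0.16. Per3 was 1.52 ± 0.15 above sham (adjusted p 4.18e-07), but 2 other probes of the gene averaged 0.09. Per1 was 0.69 ± 0.14 above sham (adjusted p 0.00113), or 0.35 with normexp (adjusted p 0.0246). Cry2 was 0.51 above sham (adjusted p 0.0249) and Npas2 -0.92 from sham (adjusted p 0.0186) with another probe at 0.74. The Cry2 call was lost with median scaling, without Neiguan replicate 1, 3 or 4 and without sham replicate 1 or 4 (adjusted p up to 0.0823), and the Npas2 call without Neiguan replicate 4 and without sham replicate 1 or 3 (up to 0.0708). Bmal1, another clock gene, was -0.88 from sham (adjusted p 0.097) and -1.50 from IRI (adjusted p 0.0182). The sources used here do not state the hour at which each heart was taken.

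The remaining lists had at most 3 calls in either direction (all genes: 12.5% higher, 7.39% lower). Some lists exceeded these shares, such as cardiomyocyte markers in higher calls and fibroblast and matrix genes in lower calls. Others fell below both, such as oxidative phosphorylation and fatty acid oxidation genes. Whether a list differed from all genes was not tested. Cardiomyocyte markers had 3 of 17 higher and 1 lower (median 0.08; 1 higher and 3 lower, median -0.08, with quantile normalization). Oxidative phosphorylation genes had 0 of 32 higher and 1 lower (0 and 7 with quantile normalization), and fatty acid oxidation genes 0 of 27 higher and 1 lower (0 and 5 with median scaling). Fibroblast and matrix genes had 1 of 14 higher and 3 lower, autophagy and mitophagy genes 2 of 17 higher and 3 lower, and atrial and conduction markers 2 of 10 higher and 1 lower. Interferon response (23), cell cycle (16), lymphocyte (10), mast cell (8) and smooth muscle and pericyte genes (10) had 0 called by limma. At an unadjusted p under 0.05 they had 1, 0, 0, 0 and 2 genes higher and 0, 1, 1, 3 and 2 lower, in that order. Endothelial markers (10), endoplasmic reticulum stress genes (14) and cell death genes (16) had 1 higher and 1 lower each. Monocyte and macrophage (14), red cell and platelet (10), heat shock and chaperone (13), glycolysis and hypoxia (20), adipocyte (6) and metalloprotease and plasminogen genes (15) had 1 higher and 0 lower each. Neuronal and glial markers had 2 of 11 higher and 2 lower, antioxidant genes 2 of 17 higher and 1 lower, ion channel and calcium genes 2 of 20 higher and 1 lower, and opioid, adenosine and purine receptor genes 1 of 12 higher and 2 lower. Several of these counts moved with the scaling. With median scaling 5 glycolysis and hypoxia genes were lower and 0 higher, 4 endothelial and 4 endoplasmic reticulum stress genes were lower and 0 higher, 6 autophagy genes lower and 1 higher, and 2 smooth muscle genes lower. Both quantile normalization and median scaling called 3 of 8 mast cell markers lower, and 3 atrial and conduction markers higher and 4 lower. Metalloprotease and plasminogen genes had 3 higher with quantile normalization. Oprd1, the delta opioid receptor, was the higher one, 0.67 ± 0.14 above sham (adjusted p 0.00234).

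**Figure D4:**
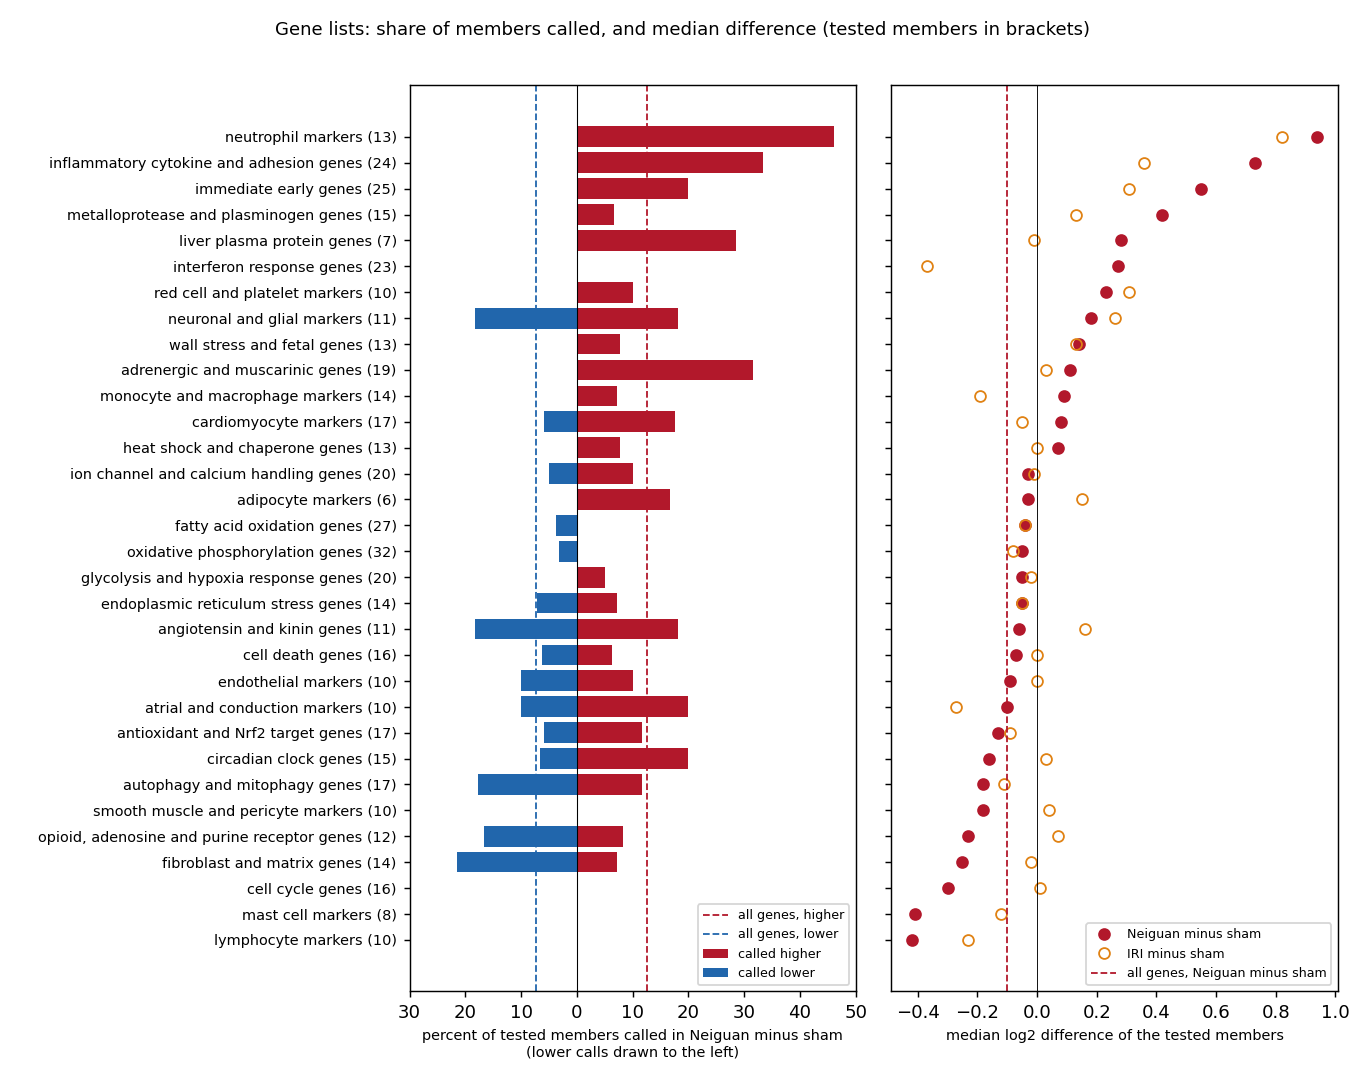
For each gene list, the percent of its tested genes called higher or lower in Neiguan minus sham (left, dashed lines: all genes, 12.5% and 7.39%) and the median log2 difference (right, filled: Neiguan minus sham; open: IRI minus sham). Neutrophil, inflammatory and immediate early genes have the highest medians of the lists drawn in Neiguan minus sham, at 0.94, 0.73 and 0.55 (smell, pheromone and taste receptors are not drawn).

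The largest differences from sham were far larger than those of IRI hearts. Krt80, an epithelial keratin, had levels of 1.65, 1.09, 1.94 and 1.78 in the Neiguan hearts, -4.95, -4.37, -4.58 and -5.38 in the IRI hearts and -6.34, -5.48, -6.1 and -6.31 in the sham hearts. It was 7.68 ± 0.26 above sham in the Neiguan hearts (adjusted p 4.62e-14) and 1.24 above sham in the IRI hearts (adjusted p 0.00608). It ran from 0.48 to 1.77 over the 12 hearts of the other acupoint groups, from which Neiguan differed by 0.33 (adjusted p 0.371). Mcc, a gene mutated in colorectal cancers, was 6.02 ± 0.27 above sham, Evc2, of cilium signalling, 5.73 ± 0.28, Defb43, a beta-defensin, 5.47 ± 0.23, and Pinx1, a telomerase inhibitor, 4.36 ± 0.22. Opalin, of oligodendrocyte myelin, was 4.25 above sham, Dact2, of Wnt signalling, 3.96, Svs3a, a seminal vesicle protein, 3.20, and the sulfate transporter Slc26a2, 2.92. The smell receptor gene Or6aa1b was 2.68 above sham. In IRI against sham Defb43 was called (1.01, adjusted p 0.0105), and the other 8 genes lay between -0.34 and 0.38. Svs3a in Quchi replicate 1 (-4.08) lay within the IRI range. With normexp the Slc26a2 difference was 1.74. Of all genes, 37 (0.287%) had every one of the 16 acupoint arrays above all 8 sham and IRI arrays, and 5 (0.0388%) had them below. No acupoint array shared a scan day with a sham or IRI array, so acupuncture and scan day cannot be told apart for these genes. Of the injury genes, 4 of the 577 injury genes called the same way were separated like this.

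**Figure D5:**
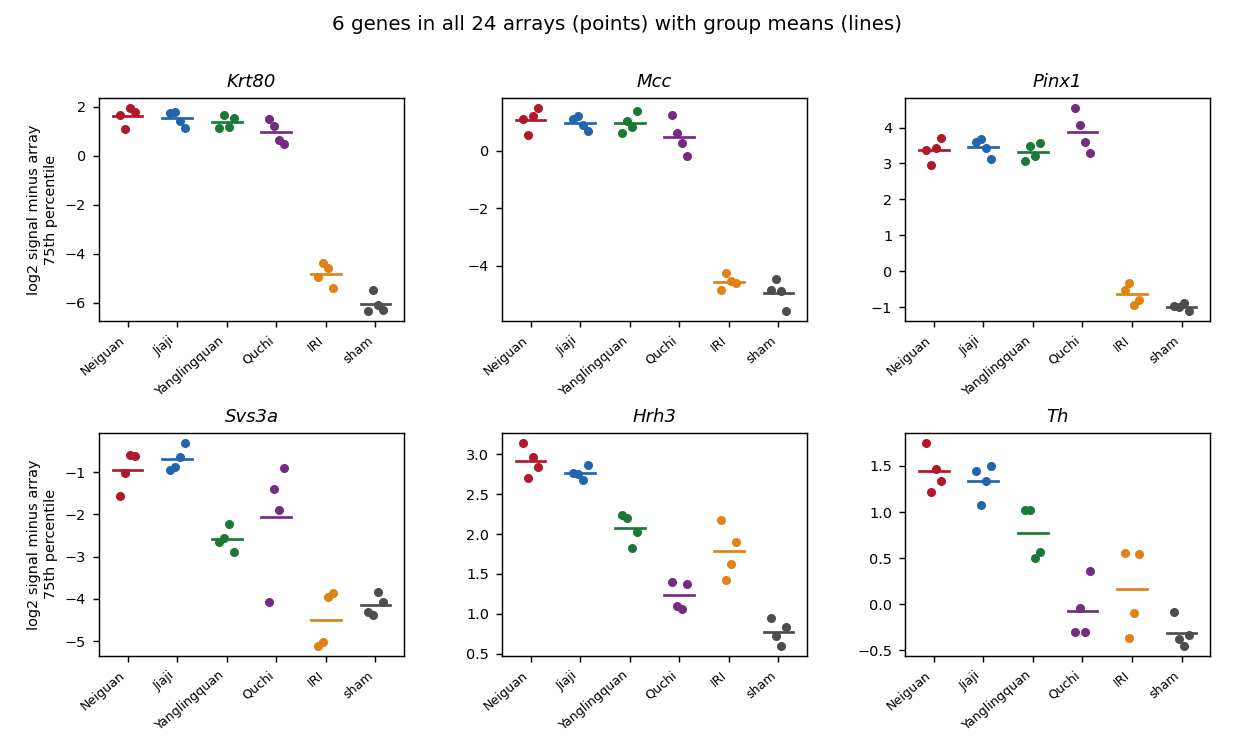
Level (log2 signal minus the array's 75th percentile, vertical axes) of 6 genes in every heart of the 6 groups. Krt80, Mcc and Pinx1 lie high in all 4 acupoint groups and low in IRI and sham, whereas Hrh3 and Th lie lower at Quchi than at Neiguan.

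Genes not well above background in any sham heart give only a lower bound. Alb, serum albumin, had levels of 1.47, -4.69, -3.07 and -4.02 in the Neiguan hearts and was not well above background on any sham array, at least 18.4-fold higher. It passed the filter through the Neiguan arrays alone, so it had to differ and its p is no test. Replicate 1 lay far above the other Neiguan hearts, and without it the bound was at least 7.23-fold. Fgb, a fibrinogen chain made in the liver, was also highest in Neiguan replicate 1 (-1.61, against -6.3 to -5.42 in the other 3). It was well above background on 3 of 4 Neiguan and 0 of 4 sham arrays, at least 3.65-fold higher (adjusted p 0.0127), or at least 1.71-fold without Neiguan replicate 1. The Fgb call was lost with normexp (adjusted p 0.172), without sham replicate 2 and in a fit of only the Neiguan and sham arrays. The mean level of the 7 liver genes was -2.83 to -1.18 in the Neiguan hearts, -3.78 to -3.18 in the IRI hearts and -3.74 to -3.11 in the sham hearts, and its part in the results was not tested. Or8g36b, a smell receptor gene, was at least 14.7-fold higher and Cyp4a2, a fatty acid hydroxylase, at least 10.8-fold higher. In the other direction Kcne3, a potassium channel subunit, was at least 1.78-fold lower, Tmem215 at least 1.56-fold lower and Trim66 at least 1.53-fold lower. None of these was well above background on any Neiguan array.

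Several further genes, well above background on all 8 arrays, were lower in the Neiguan hearts with no overlap. Trim50, a ubiquitin ligase, was -1.06 ± 0.21 from sham (adjusted p 0.000999), Ccdc69 -0.93 ± 0.16 (adjusted p 0.000301; -0.56 with normexp), Gstz1, of tyrosine breakdown, -0.92 ± 0.20 (adjusted p 0.0027), and Tnfaip8 -0.89 ± 0.15 (adjusted p 0.000185). Fap, a fibroblast surface protease, was -0.78 ± 0.20 from sham (adjusted p 0.00806) and -0.90 from IRI (adjusted p 0.00704).

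Neiguan differed from the mean of Jiaji, Yanglingquan and Quchi in 368 genes (2.85%), 237 higher (1.84%) and 131 lower (1.02%). No other acupoint group lay on the Neiguan slide, and Quchi replicate 1 was scanned on another day. Slide and acupoint therefore cannot be told apart in this comparison. Of the genes called against sham, 210 of 1613 higher and 70 of 953 lower were called the same way here. Both comparisons share the Neiguan arrays, so a Neiguan array that lies apart moves both in 1 direction. These counts are a description. Hrh3, a histamine receptor found on nerve endings, led those named here. Its levels were 3.14, 2.7, 2.97 and 2.84 in the Neiguan hearts, 2.17, 1.43, 1.63 and 1.9 in the IRI hearts and 0.95, 0.72, 0.6 and 0.83 in the sham hearts, 2.14 ± 0.12 above sham (adjusted p 1.45e-10) and 0.89 above the other acupoints (adjusted p 0.000188). The Jiaji hearts, at 2.67 to 2.86, overlapped the Neiguan hearts, whereas Yanglingquan hearts at 1.82 to 2.24 and Quchi hearts at 1.06 to 1.4 were lower. Lypd2, a gene of the Ly6 family, was 1.93 ± 0.12 above sham and 0.86 above the other acupoints (adjusted p 0.000251), and Treml2, a receptor of myeloid and lymphoid cells, 1.48 ± 0.10 and 0.62 (adjusted p 0.00116). Lower ones were Spata6l (-1.25 from sham, or -0.65 with normexp; -0.81 from the other acupoints, adjusted p 0.00243) and Nprl2, a regulator of growth signalling (-0.42; -0.45, adjusted p 0.00886). The count of 368 depended on single hearts: it was 67, 130, 178 and 47 without Neiguan replicate 1, 2, 3 and 4 in turn, 215, 214 and 230 without sham replicate 1, 3 and 4, and 225 and 220 without IRI replicate 1 and 3. With normexp 34.2% of 688 calls were higher, against 64.4% of the 368. Of the higher injury genes, 105 of 609 (17.2%) were called higher here, and of the lower injury genes 0 were called lower.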

How the data were processed

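RNA of rat myocardium was labelled with Cy3 and hybridised to 24 one-colour Agilent arrays, 4 a group. The scanner files hold the processed signal, an intensity on a linear scale that Feature Extraction (11.0.1.1 per the file headers, 10.7.3.1 per the submitters' processing notes) had background-subtracted, with detection and outlier flags per the file headers. The value table deposited by the authors holds log2 values (column medians 7.21, at least 0.997 correlated with the scanner log2 values), used as an alternative. Its 0 unmapped columns left nothing out. Groups came from the sample titles.

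Outlier-flagged spots (8733 over all arrays) and 1377 control spots per array were left out, and no spot was saturated. Spots were averaged per probe and log2 values scaled to the 75th percentile over probes. Of 30367 probes, 18005 (59.3%) matched a RefSeq symbol by accession, giving 15168 genes; a probe was kept if some group had it well above background on each of its 4 arrays, and the brightest kept probe stood for its gene, which left 12894 genes. A gene that passed only through the group where it is high had to differ. In Neiguan or sham, 43 of these genes lacked a value on some array, which was left missing. The number of arrays limits the precision. Tests used limma 3.58.1 in R 4.3.3 (group and sex, all 24 arrays, 17 residual degrees of freedom, Benjamini-Hochberg, threshold 0.05). In simulated data on 12894 genes for Neiguan minus sham, 25%, 74% and 96% of log2 changes of 0.5, 1 and 2 were recovered, with 3 false calls. The simulation had independent noise, no slide or day effect, and only 100, 50 and 50 changed genes of these sizes. Its shares therefore need not hold in the data, and it cannot show calls that follow slide or day. A lower bound (at least N-fold) sets the bright group's mean against, per dim array, the higher of the lowest signal well above background and the probe's own. Normexp (offset 50) used median spot signals.

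The groups of genes and lists were chosen with earlier results of these data known. Named genes were the largest called changes measured on all 8 arrays without overlap and the largest bounds, up to 4 called members a list, the largest shared injury genes and those toward sham, a fixed panel, and those called against the other acupoints with smallest p; a few of them are not reported here. Alternatives covered normalization, background, filters, samples, sex, blocks, probes and each replicate left out.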

Additional observations from a re-analysis of the deposited data

Results flagged for a closer look

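In 22 of 280 groups of 4 values (named genes, Neiguan and sham), 1 heart lay farther from its nearest neighbour than Dixon's 95% critical value allows. Chance flags about 1 in 20 groups. The flags fell 11 times among Neiguan hearts and 11 times among sham hearts. Levels are log2, with the range of the other 3 hearts in brackets. Among the Neiguan hearts these were Il13ra2 Neiguan replicate 2 at -4.86 (-5.4 to -5.32), Cyp4a2 Neiguan replicate 3 at -3 (-3.47 to -3.44) and Kcne3 Neiguan replicate 1 at -7.24 (-6.75 to -6.66). Further such values were Aplnr Neiguan replicate 3 at -2.6 (-2.47 to -2.45), Gp9 Neiguan replicate 1 at -2.94 (-2.4 to -2.29) and Per3 Neiguan replicate 1 at 1.06 (0.45 to 0.53). Also apart were Or2aj4 Neiguan replicate 3 at -5.76 (-5.22 to -5.12), Or2l13c Neiguan replicate 4 at -4.43 (-5.69 to -5.53) and Fmo9 Neiguan replicate 1 at -4.58 (-5.72 to -5.64). The last were Trim23 Neiguan replicate 2 at -2.28 (-2.95 to -2.89) and C8h3orf62 Neiguan replicate 2 at 0.89 (1.2 to 1.21). Among the sham hearts these were Or8g36b sham replicate 2 at -6.85 (-8.81 to -8.74), Cyp4a2 sham replicate 2 at -8.15 (-8.85 to -8.8) and Trim66 sham replicate 2 at -4.38 (-5.92 to -5.71). In the same group stood Atp2a2 sham replicate 1 at 7.27 (6.84 to 6.91), Elane sham replicate 4 at -1.52 (-2.54 to -2.43) and Cxcr2 sham replicate 4 at -5.58 (-5.35 to -5.34). Next came Zfp36 sham replicate 2 at -0.15 (0.71 to 0.75), Car9 sham replicate 3 at -2.56 (-2.36 to -2.33) and Chrm3 sham replicate 1 at -2.77 (-3.36 to -3.26). The rest were Or7g23e sham replicate 2 at -8.5 (-7.11 to -6.85) and Nprl2 sham replicate 2 at 0.91 (1.02 to 1.03).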

How the results depend on the processing

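Of 141 named genes, 119 were called; 63 of these kept the call in every one of 23 other settings run and 56 lost it in at least 1. The 2566 genes called in Neiguan against sham became 4331 with median scaling, 4656 with slide as a random block and 6038 over all probes, and ranged from 1660 to 2737 with 1 replicate left out. The 577 injury genes called the same way became 1283 with the slide block and 1756 over all probes, with a range of 335 to 550 without 1 replicate. The 168 injury genes differing between Neiguan and IRI became 477 and 544 in those settings, with a range of 111 to 147. The 368 genes differing from the other acupoints became 183 with median scaling, 688 with normexp, 194 with no filter, 1935 with the slide block, 1019 over all probes and 224 with the percentile over spots, a setting added after seeing the data, with a range of 47 to 473. The slide block rests on an estimated correlation of -0.1 within slides. Neiguan, IRI and sham each had a slide of their own, so it cannot take slide out of their comparisons. For the other moves the cause was not tested, except that all probes means more features tested. Same-numbered Neiguan and sham arrays deviated together at r = -0.1, 0.24, -0.02 and 0.1, so the numbers were not taken as pairs; with the replicate block the 4 counts were 2633, 563, 168 and 452. Directions turned for 7 genes near 0 or weakly called: Nppa was -0.03 and Nppb 0 with median scaling, and Ucp1 was -0.08 with normexp. With 1 replicate left out, Nppa ranged from -0.34 to 0.38 (-0.34, -0.07 and -0.07 without Neiguan replicate 2, sham replicate 1 and sham replicate 4), Dbp from -0.47 to 0, Ankrd1 from -0.21 to 0.08, Clic6 from -0.39 to 0.04 and Hmox1 from -0.11 to 0.51. Faint probes have little signal over background, which limits their differences.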
